A study of Mus musculus with 4 samples.

Results

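Foxp3-positive regulatory T cells are described here from single-cell RNA sequencing of CD45+ leukocytes of the colonic lamina propria in mice with acute colitis. The members were chosen by their transcript counts, that is, by unique molecular identifiers (UMIs), each of which tags 1 captured RNA molecule. A cell was taken when it held at least 1 Foxp3 UMI, at least 2 UMIs of Cd3e, Cd3d and Cd3g together, no UMI of Cd8a or Cd8b1, no UMI of the other-lineage genes Ngp, Csf3r, Csf1r, Cd79a, Ms4a1 and C1qa, and under 0.5% of its UMIs in S100a8 and S100a9. The rule gave 381 cells of the 43432 that had at least 200 genes and under 20% mitochondrial UMIs, out of 45229 deposited cells. Foxp3, the Cd3 genes and the genes used to exclude other cells are therefore given as descriptions and not tested.

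The study compared AhR-null mice, which carry a germline null allele of the aryl hydrocarbon receptor, with wild-type littermates, all on a C57BL/6 background. All 4 samples came from mice that the labels give as 10 weeks old and that drank 2% dextran sulfate sodium (DSS) for 7 days, with the colons taken on day 8. Colons of 3 mice of 1 group were mixed to make each sample, and cells were enriched with magnetic beads against CD45. The labels state the DSS treatment for every sample and a genotype for none, so the samples are numbered 1 to 4, no genotype was used, and no sample is compared with another as a member of a group. A value for a sample is thus a value for 3 mixed mice, and its cells are not replicates.

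Regulatory T cells are CD4 T cells that restrain immune responses, and the forkhead transcription factor Foxp3 sets and maintains their identity. They consume interleukin-2 through the high-affinity receptor chain Il2ra, strip or block costimulatory ligands through Ctla4, and release or activate the suppressive cytokines interleukin-10 and TGF-beta. In the colon, a population of them carries the Helios factor (Ikzf2), Gata3 and the interleukin-33 receptor ST2 (Il1rl1) and is linked to tissue repair, and another, raised by the microbiota, carries Maf.

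Samples 1 to 4 held 55, 58, 148 and 120 Foxp3-positive cells. Their summed UMIs were 510124, 511792, 1980469 and 1546226, so samples 3 and 4 gave the deepest sums, out of 113806334, 135516016, 101579112 and 72509408 UMIs in all deposited cells of the samples. No barcode was a Foxp3-positive cell in more than 1 sample. Members held 1299 Foxp3 UMIs in all, with a median of 3 per cell and a highest value of 22. In total, 109 members rested on a single Foxp3 UMI and 272 had at least 2. A Cd4 UMI was present in 281 of the 381 members, and a Trdc UMI, from the gamma-delta T cell receptor, in 8.

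The label was checked against Ctla4, Tnfrsf4, Icos and Ikzf2, none of which the rule used. Ctla4, the inhibitory receptor, was detected in 92.7% of the members with a single Foxp3 UMI and in 99.6% of those with more. Ikzf2 (Helios) was detected in 78.9% and 85.3% of these cells, and Il2ra in 76.2% and 88.6%. Tnfrsf4 was detected in 82.6% and 91.9% of them, and Icos in 91.7% and 96.0%. Among 623 Foxp3-negative CD4 T cells of the same libraries the shares were 80.1% for Ctla4, 46.2% for Ikzf2 and 28.6% for Il2ra. For Tnfrsf4 and Icos they were 49.6% and 82.3%. Members just inside the threshold thus carried the markers more often than cells without Foxp3, and somewhat less often than members with more Foxp3 UMIs, which also had more UMIs in all (a median of 9864 against 6457). The 35 cells that failed only by having 1 Cd3 UMI in place of 2 had Ctla4 in 94.3% and Il2ra in 48.6%, while the 31 members with exactly 2 Cd3 UMIs had them in 93.5% and 77.4%.

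Free RNA and droplets of mixed cells can put a UMI of Foxp3 in cells that do not express it, which sets a floor under a gate of 1 UMI. Foxp3 was present in 0.498% to 1.66% of B cells, 0.340% to 1.59% of neutrophils and 0.565% to 1.09% of macrophages across the 4 samples, at median depths of 4740 to 10344 UMIs per cell. In CD8 T cells the share was 0.807% to 2.82%, from 2 to 4 cells a sample. The gate left out 572 cells with Foxp3 and at least 2 Cd3 UMIs that failed only by a UMI of an other-lineage gene. Their median was 18406 UMIs against 8774 in members, and whether they are droplets of more than 1 cell was not tested.

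Counting as CD4 T cells the members and the Foxp3-negative cells with a Cd4 UMI, 29.1% were Foxp3-positive in sample 1, with an exact binomial interval (95%) of 22.7 to 36.1. The share was 26.5% in sample 2 (interval 20.8 to 32.9), 48.05% in sample 3 (interval 42.35 to 53.8) and 41.7% in sample 4 (interval 35.9 to 47.6). Samples 1 and 2 lay below samples 3 and 4, and the intervals of sample 1 and sample 4 overlapped narrowly. A Cd4 UMI was asked of the Foxp3-negative cells but not of the members, which can only raise the shares. With a Cd4 UMI needed in both, samples 1 to 4 held 39, 37, 113 and 92 members beside 134, 161, 160 and 168 Foxp3-negative cells. Of all cells passing the filters the members were 0.501%, 0.439%, 1.33% and 1.49%, which kept the same 2 samples low. Of all cells in the T cell gate they were 9.32%, 3.68%, 23.6% and 16.6%, sample 2 being lowest with 392 CD8 T cells against 62, 79 and 113 in samples 1, 3 and 4. Each cell of the T cell gate was also thinned to 1000 UMIs, and Foxp3, Cd4 and Trdc were read anew. The other rules stayed as read at full depth. The share of CD4 T cells was then 38.3%, 22.9%, 44.3% and 39.2%, from 23 of 60, 19 of 83, 47 of 106 and 40 of 102 cells. With at least 2 Foxp3 UMIs required at full depth the share was 24.7%, 16.2%, 41.2% and 33.6%. After thinning, which was drawn at random 1 time, samples 1 and 4 lay close together. Their thinned intervals were wide, at 26.1 to 51.8 and 29.7 to 49.4, and whether depth set their distance was not tested. Sample 2 stayed lowest under both settings. These intervals cover counting error alone, and the shares are within the CD45-enriched cells that were sequenced, so a low share may reflect fewer Foxp3-positive cells or more of the others.

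**Figure D1:**
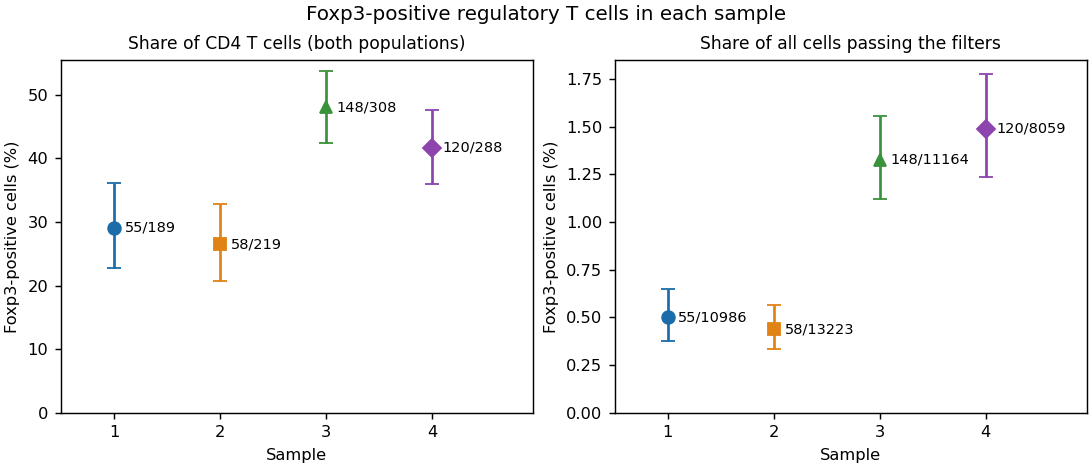
Share of Foxp3-positive cells in each sample, of CD4 T cells on the left and of all cells passing the filters on the right (points, percent of cells; bars, exact 95% binomial intervals; labels, cell counts). Samples 1 and 2 sit at 29.1% and 26.5% of CD4 T cells and samples 3 and 4 at 48.05% and 41.7%. A Cd4 UMI was asked of the Foxp3-negative cells but not of the members.

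The main comparison asked which genes set Foxp3-positive cells apart from the other CD4 T cells of the same libraries. The comparison cells, here called Foxp3-negative CD4 T cells, passed the same rules but held no Foxp3 UMI, at least 1 Cd4 UMI and no Trdc UMI. In each sample, UMIs were summed over its members and over its comparison cells (381 and 623 cells in all) and fitted with edgeR's quasi-likelihood test with the sample as a block, so each difference lies within a library (n = 4 samples in each population). Levels are given as CPM, the counts per 1000000 summed UMIs. The value after ± is the standard error of the log2 difference that the edgeR F statistic implies. It is not a spread over the 4 samples. In a sum, fewer cells expressing a gene and less RNA per expressing cell cannot be told apart. Members were deeper than the comparison cells in each sample, with median UMIs of 7365, 6508, 9324 and 9780 against 6456, 4667, 8306 and 7250. Of 9156 genes tested, 690 (7.54%) were higher and 615 (6.72%) lower in Foxp3-positive cells at an adjusted p under 0.05, and the median log2 difference over all tested genes was 0.014. The 2 populations did not overlap across samples for 7.96% of tested genes on the high side and 5.66% on the low side, meaning that the lowest value of 1 population lay above the highest value of the other.

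The 4 tested genes of the marker list were all higher, with a median log2 difference of 1.16. Ctla4 reached 2592, 2515, 2123 and 2114 CPM in samples 1 to 4 against 638, 961.5, 1088 and 1398 CPM in Foxp3-negative cells. Ctla4 was 2.25-fold higher (log2 difference 1.17 ± 0.18, edgeR adjusted p = 0.00127), and its sets of values did not overlap. Ikzf2 stood at 2556, 2073, 1399 and 1275 against 459, 708, 472 and 502 CPM. Ikzf2 was 3.17-fold higher (1.66 ± 0.16, edgeR adjusted p = 5.74e-05), without overlap between the populations, although CD8 T cells of samples 1 and 2 also held 2079 and 2759 CPM of it. Tnfrsf4 (OX40), a costimulatory receptor, differed by 1.15 ± 0.24 on the log2 scale and Icos by 0.44 ± 0.10 (edgeR adjusted p = 0.00836 and 0.0146), so Icos showed the smallest difference of the 4. The call of Icos was lost without sample 2 or sample 3 (edgeR adjusted p = 0.0691 and 0.0504) and against effector-like cells, that is, Foxp3-negative cells without a UMI of Ccr7, Lef1 or a further naive T cell gene (edgeR adjusted p = 0.8).

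Of 20 further genes of the regulatory T cell signature, 14 were higher, none was lower and 6 were not called, with a median log2 difference of 1.23. Il2ra, the interleukin-2 receptor alpha chain, reached 433, 510, 925 and 728 CPM against 65.6, 86.4, 197 and 196.5 CPM. Il2ra was 4.75-fold higher (2.25 ± 0.14, edgeR adjusted p = 3.11e-06) and the lowest Foxp3-positive sample lay above the highest Foxp3-negative one. Tnfrsf9 (4-1BB), an activation receptor of the TNF receptor family, was the most abundant of the list at 931, 727, 890.2 and 662 CPM against 118, 92, 271 and 238 CPM. Tnfrsf9 rose 4.46-fold (edgeR adjusted p = 1.24e-04), again without overlap. Itgb8, the integrin chain that with alpha v activates latent TGF-beta, had one of the largest differences of the list at 66.65, 52.8, 58.1 and 45.3 CPM against 0.937, 6.73, 3.01 and 4.21 CPM. Itgb8 was 14.3-fold higher (3.84 ± 0.34, edgeR adjusted p = 3.25e-05). Lrrc32 (GARP), which docks latent TGF-beta on the cell surface, differed in the same direction by 2.83 ± 0.34, from levels of 1.12 to 5.42 CPM to 11.7 to 43.1 CPM (edgeR adjusted p = 2.67e-04). Ikzf4 (Eos), a partner of Foxp3 in repression, differed by 1.79 ± 0.25 and Capg, an actin-capping protein, by 1.91 ± 0.13 (edgeR adjusted p = 6.96e-04 and 4.03e-06). The 6 that were not called were Tnfrsf1b, Tigit, Nrp1, Gpr83, Cd83 and Rgs16. Nrp1, often used to mark thymus-derived regulatory T cells, stood at 21.6, 0, 7.57 and 8.41 CPM in Foxp3-positive cells, with no UMI in sample 2.

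**Figure D2:**
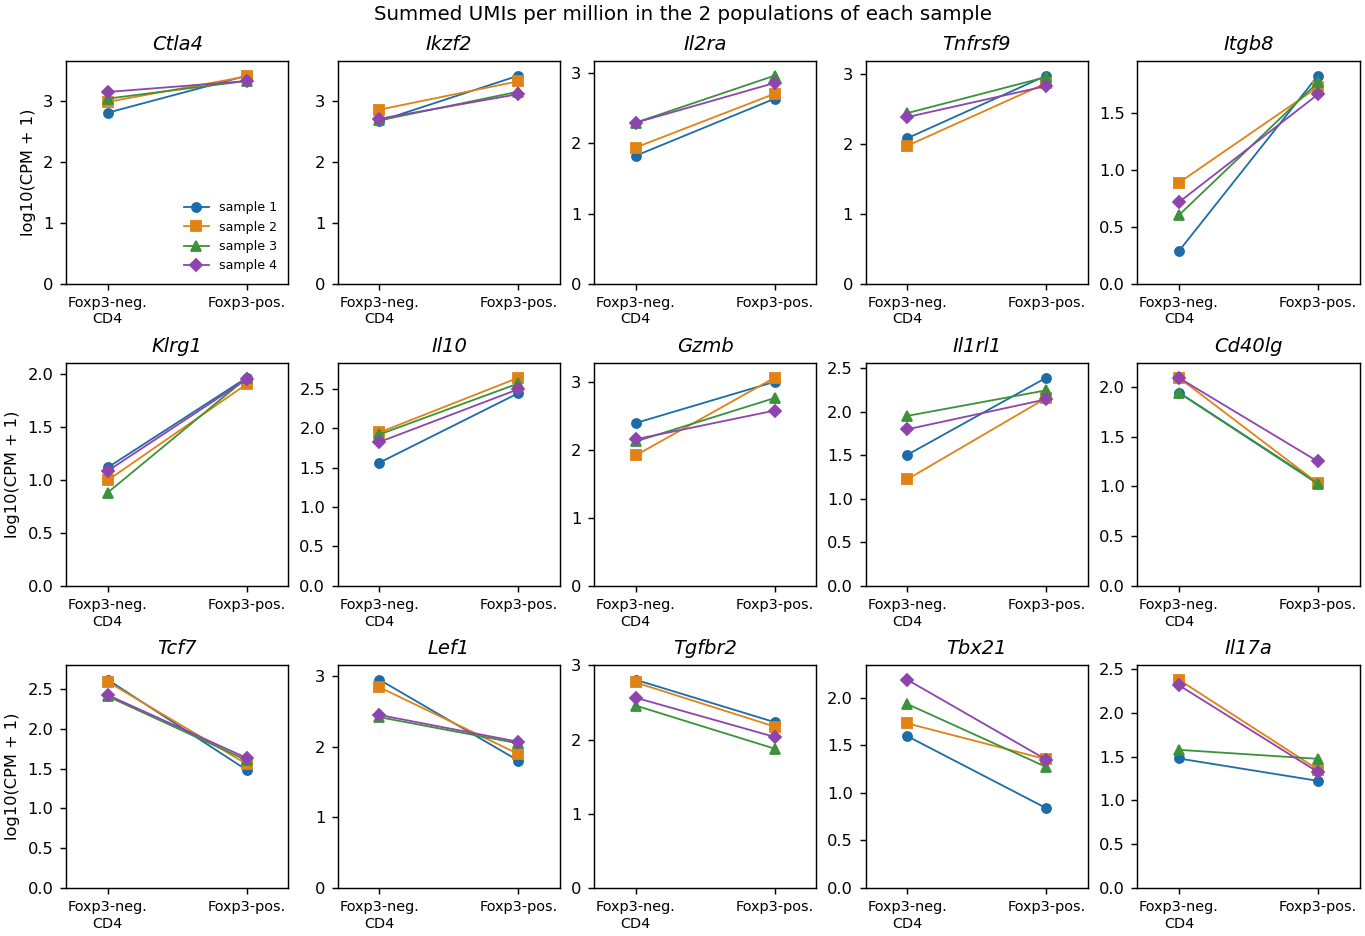
Level of 15 genes in the Foxp3-negative CD4 T cells and Foxp3-positive cells of each sample (vertical axis, log10 of CPM + 1, a separate scale for each gene; lines join the 2 populations of a sample). Ctla4 to Il1rl1 are higher in Foxp3-positive cells in 4 of 4 samples and Cd40lg to Il17a lower in 4 of 4.

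Genes of suppressive function were mostly higher, 10 of 15 tested with none lower and a median log2 difference of 1.16. Il10 reached 278, 438, 370.1 and 313 CPM against 35.6, 87.5, 82.5 and 65.95 CPM. Il10 was 4.98-fold higher (2.32 ± 0.14, edgeR adjusted p = 2.64e-06), and an Il10 UMI was found in 38.2%, 56.9%, 53.4% and 49.2% of members against 8.21%, 9.32%, 12.5% and 16.1% of Foxp3-negative cells. At 1000 UMIs per cell the shares were 14.5%, 22.4%, 27.7% and 20.8% against 2.24%, 3.73%, 6.88% and 8.33%, so the populations stayed apart at equal depth. Gzmb (granzyme B), a cytotoxic protease that some regulatory T cells use against their targets, stood at 1004, 1155, 579 and 378 CPM against 247, 81.9, 132 and 142 CPM. Gzmb was 4.64-fold higher (2.21 ± 0.28, edgeR adjusted p = 4.29e-04), with CD8 T cells at 322 to 1023 CPM, a range overlapping that of the members. Areg (amphiregulin), an epidermal growth factor receptor ligand of tissue repair, differed by 1.16 ± 0.19 (edgeR adjusted p = 0.00223) but its level spread from 52.9 to 486.5 CPM among members, sample 1 being low in both populations. Also higher were the checkpoint receptors Lag3 (1.52 ± 0.20) and Havcr2 (1.64 ± 0.16), Fgl2 (1.13 ± 0.17), and the ectoenzymes Entpd1 (1.51 ± 0.16) and Nt5e (0.89 ± 0.17), which together turn ATP into adenosine. Nt5e was not called against effector-like cells (edgeR adjusted p = 0.13). Tgfb1 did not pass the test at 76.45 to 158 CPM against 84.35 to 129 CPM (log2 difference 0.12 ± 0.13, edgeR adjusted p = 0.587), and neither did Ebi3, Cd274 or Pdcd1. Il12a, the partner of Ebi3 in interleukin-35, fell under the count filter, at 0 in samples 1 and 2.

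Genes of the tissue and ST2 program were higher for 9 of 15, lower for 1, and not called for 5. Il1rl1 (ST2) reached 245, 143, 175 and 138 CPM against 30.9, 15.7, 88.5 and 61.7 CPM, with no overlap. Il1rl1 was 3.3-fold higher (1.72 ± 0.29, edgeR adjusted p = 0.00265). Gata3 itself did not pass the test, with 182, 68.4, 210.1 and 184 CPM against 100.3, 67.3, 176.5 and 194 CPM (log2 difference 0.19 ± 0.15, edgeR adjusted p = 0.439). Foxp3-negative CD4 T cells held similar levels of Gata3, and sample 2 was low in both populations. Klrg1, an inhibitory receptor of terminally differentiated and tissue regulatory T cells, was nearly constant among samples at 92.1, 80.1, 91.9 and 89.25 CPM against 12.2, 8.98, 6.625 and 11.2 CPM. Klrg1 was 8.87-fold higher (3.15 ± 0.21, edgeR adjusted p = 3.83e-06). The factors Prdm1 (1.28 ± 0.19), Irf4 (0.57 ± 0.16) and Nfil3 (1.09 ± 0.16) were higher too, Batf was not called (-0.01 ± 0.17, edgeR adjusted p = 0.973), and Cd44 was lower (-0.61 ± 0.12, edgeR adjusted p = 0.00631). Cd44 was not called at 1000 UMIs (-0.46, edgeR adjusted p = 0.172), in cells of 2000 to 8000 UMIs (-0.39, 0.163) or without the sample block (0.0916), and Nfil3 lost its call under both limits on depth. Irf4 was not called without sample 1, 2 or 4 (edgeR adjusted p = 0.116, 0.119 and 0.0763), nor against effector-like cells (0.542). The interleukin-1 decoy receptor Il1r2 differed by 0.95 ± 0.18 (edgeR adjusted p = 0.00457).

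Genes of the type 17 program divided, 2 of 10 being higher, 3 lower and 5 not called. Maf, which drives Il10 in T cells, was higher at 976, 1036, 985 and 1175 CPM against 305, 496, 674.5 and 978 CPM (0.80 ± 0.18, edgeR adjusted p = 0.0124), with sample 4 of the comparison cells reaching the level of the members. Without sample 1 or sample 2 Maf missed the threshold (edgeR adjusted p = 0.0514 and 0.061), as it did against effector-like cells (0.0913), where no gene of the list was higher. Ahr differed by 0.46 ± 0.13 (edgeR adjusted p = 0.0359), from 75.9 to 146 CPM in Foxp3-negative cells to 88.2 to 214 CPM in members. Since the samples' genotypes are not in the labels, the Ahr values were not used to tell AhR-null from wild-type samples. The call of Ahr was kept in 5 of 15 alternatives. It was lost without sample 2, 3 or 4 (edgeR adjusted p = 0.0648, 0.128 and 0.18), against effector-like cells (0.407), in cells of 2000 to 8000 UMIs (0.642), at 1000 UMIs (0.782), without the sample block (0.297), where Cd4 was needed in both populations (0.152), without cells rich in MHC class II UMIs (0.172) and by DESeq2 (adjusted p = 0.118). The type 17 cytokines were lower. Il17a stood at 15.7, 21.5, 28.8 and 20.05 CPM against 29.05, 238, 36.7 and 206 CPM, the ranges being narrowly apart (-2.20 ± 0.44, edgeR adjusted p = 0.00696), although 1 cell held 130 of the 212 Il17a UMIs of the comparison cells of sample 2 and 1 cell 180 of the 293 of sample 4. Il17f and Il22 differed by -3.54 ± 0.52 and -2.50 ± 0.70. For Il17f too 1 comparison cell held much of the sum, with 28 of 39, 26 of 38, 15 of 27 and 56 of 70 UMIs in samples 1 to 4. Single samples moved these sizes: the log2 difference of Il17a was -3.09 without sample 3 and -1.56 without sample 4, that of Il17f -5.18 and -2.91, and that of Il22 was -4.28 without sample 4. Il22 was not called without sample 1, 2 or 3 (edgeR adjusted p = 0.0945, 0.116 and 0.0913), and Il23r and Ccr6 were not called at all.

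Effector cytokines and helper factors were low in Foxp3-positive cells. Of 15 cytokine genes 8 could be tested, and 6 were lower and none higher. Il21, a follicular helper cytokine, was at 0, 0, 2.02 and 1.29 CPM against 26.2, 26.9, 12.65 and 26.7 CPM (-3.96 ± 0.53, edgeR adjusted p = 5.82e-04), with a log2 difference of -4.98 without sample 3. Ifng (interferon gamma) was lower in all 4 samples at 214, 15.6, 7.57 and 8.41 CPM against 1095, 43.8, 56 and 49.1 CPM (-2.49 ± 0.18, edgeR adjusted p = 9.76e-06). Sample 1 stood far above the others in both populations through single cells, 1 member holding 107 of its 109 Ifng UMIs and 1 comparison cell 1098 of 1168. Without the cells rich in MHC class II UMIs that are described further down, the log2 difference of Ifng was -0.73 (edgeR adjusted p = 0.438). Cd40lg, the CD40 ligand by which helper T cells license B cells and dendritic cells, was at 9.8, 9.77, 9.59 and 16.8 CPM against 87.2, 123, 86.7 and 123 CPM, the largest fall among the 446 genes eligible for naming on the low side. Cd40lg was 8.95-fold lower (-3.16 ± 0.18, edgeR adjusted p = 2.64e-06). Tbx21 (T-bet), the factor of type 1 helper cells, stood at 5.88, 21.5, 17.7 and 21.3 CPM against 38.4, 52.7, 84.9 and 154 CPM (-2.41 ± 0.23, edgeR adjusted p = 5.06e-05), and the interleukin-12 receptor chain Il12rb2 differed by -1.90 ± 0.16. Bcl6 (-1.26 ± 0.19), Cxcr5 (-1.01 ± 0.29), Stat4 (-0.81 ± 0.11), Il18rap (-0.68 ± 0.15) and Cxcr6 (-1.13 ± 0.24) were lower too. Of this list of 13 helper factors and receptors, 7 were lower and 1 was higher. Cxcr5 kept its call in 6 of 14 alternatives and was not called without sample 1, 2 or 4, by DESeq2 (adjusted p = 0.123) or against effector-like cells, where its log2 difference was -0.25 (edgeR adjusted p = 0.783). Cxcr6 was not called without sample 3 and Il18rap not without sample 3 or 4. At 1000 UMIs Il18rap was not called either (-0.45, edgeR adjusted p = 0.23). In cells of 2000 to 8000 UMIs its log2 difference was 0.01 (edgeR adjusted p = 0.984).

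Genes of central and naive T cells were lower for 8 of 11 and higher for 1, with a median log2 difference of -1.395. Tcf7, the factor of naive and memory T cells, stood at 29.4, 35.2, 39.4 and 42 CPM against 416, 392, 257 and 267 CPM. Tcf7 was 8.51-fold lower (-3.09 ± 0.19, edgeR adjusted p = 3.11e-06), without overlap. Lef1 was 62.7, 78.2, 111 and 117 CPM against 897, 701, 263 and 283 CPM (-2.25 ± 0.36, edgeR adjusted p = 0.00189), the Foxp3-negative cells of samples 1 and 2 holding the highest levels. Klf2, Satb1, Bcl2 and S1pr1 differed by -1.40 ± 0.14, -1.06 ± 0.14, -1.45 ± 0.21 and -0.99 ± 0.26. Ccr7 was not called: members of samples 1 and 2 were lower and those of samples 3 and 4 higher than the comparison cells (116, 113, 327 and 248 against 394, 286, 231 and 168 CPM). S1pr1 was not called without sample 1 or sample 2 (edgeR adjusted p = 0.106 and 0.0653) nor against effector-like cells, where its log2 difference was 0.11. Against effector-like cells, which were chosen for lacking naive T cell genes, 3 of 6 genes of the list were lower with a median of -0.39, and Satb1 was not called (-0.29, edgeR adjusted p = 0.0858).

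**Figure D3:**
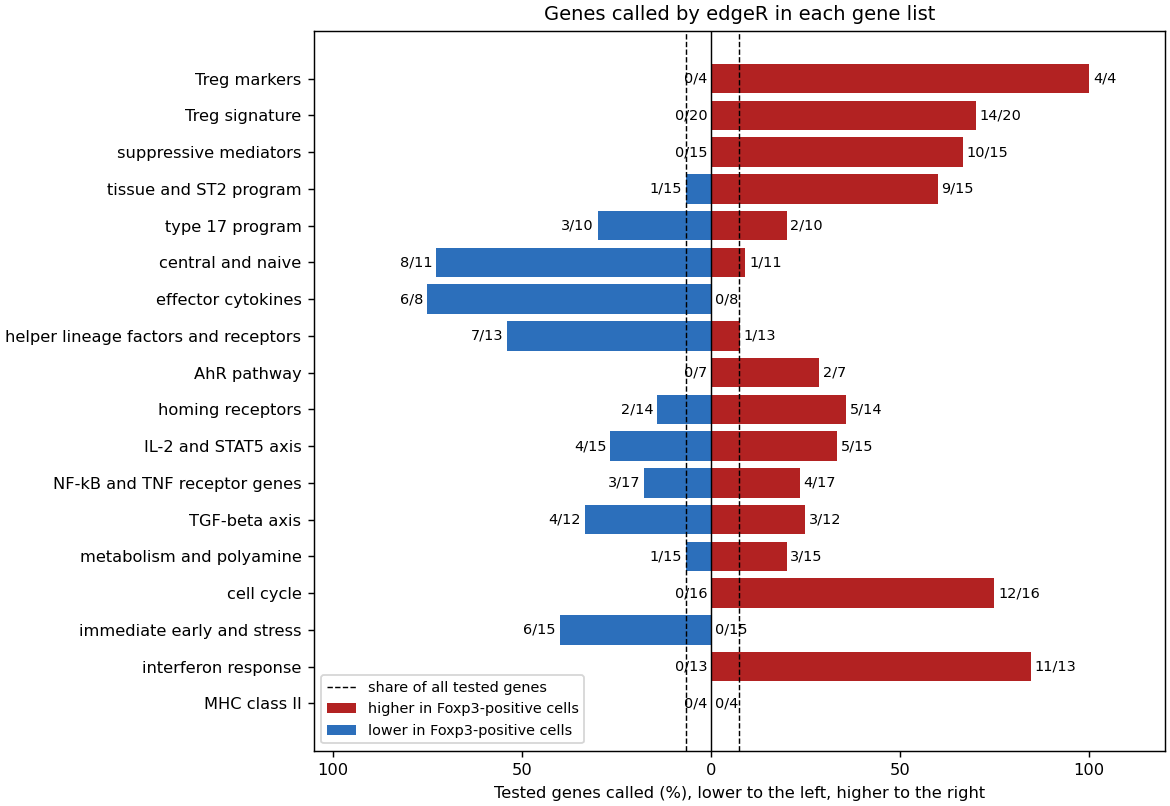
Share of the tested genes of each list of T cell genes and of MHC class II genes that edgeR called lower (left) and higher (right) in Foxp3-positive cells, in percent, with the counts beside the bars and dashed lines at the shares over all tested genes (6.72% lower, 7.54% higher). Marker lists of other cells are not drawn. Among the lists drawn, the regulatory T cell, interferon and cell cycle lists reach farthest to the right and the effector cytokine and naive lists farthest to the left.

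Among receptors that guide T cells to tissue, 5 of 14 were higher and 2 lower. Itgae (CD103), the integrin chain that binds E-cadherin on epithelium, stood at 86.25, 139, 21.7 and 71.8 CPM against 14.1, 15.7, 18.7 and 4.91 CPM (2.24 ± 0.42, edgeR adjusted p = 0.00528), sample 3 being lowest among members. Without sample 3 its log2 difference was 3.08. Its partner Itgb7 differed by 0.70 ± 0.13 (edgeR adjusted p = 0.00567). Ccr9, the receptor for the gut chemokine Ccl25, was 41.2, 104, 74.7 and 209.5 CPM against 4.69, 22.4, 48.2 and 75.1 CPM (1.41 ± 0.25, edgeR adjusted p = 0.00335), higher in 4 of 4 samples although the ranges overlapped. Ccr4 was higher by 1.28 ± 0.19, but not called against effector-like cells (edgeR adjusted p = 0.119). Gpr15, a colon homing receptor, held 0 to 3.92 CPM and was not tested.

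The genes with the largest folds were partly known regulatory T cell genes and partly genes with less familiar roles in T cells. Ky, named for the kyphoscoliosis muscle peptidase, led them at 86.25, 244, 47.5 and 71.8 CPM against 13.1, 2.24, 4.22 and 1.4 CPM. Ky was 17.8-fold higher (4.16 ± 0.41, edgeR adjusted p = 7.73e-05), carried by 13, 31, 24 and 27 members of samples 1 to 4 and by 1 or 2 comparison cells a sample. Its log2 difference was 5.01 without sample 1 and 3.53 without sample 2. Nckap5 reached 163, 817, 228 and 236 CPM against 4.69, 60.6, 19.3 and 9.82 CPM. Nckap5 was 15.5-fold higher (3.95 ± 0.20, edgeR adjusted p = 2.63e-06), sample 2 standing highest through 35 of its 58 members rather than a single cell. Frmd5 differed by 3.72 ± 0.21 (edgeR adjusted p = 2.64e-06), at 359, 481, 157.5 and 173 CPM in members. CD8 T cells held 9.24, 443, 42.95 and 31.5 CPM of it, close to the members in sample 2 alone. Myo3b, an unconventional myosin, was 212, 264, 277 and 345 CPM against 27.2, 26.9, 50.6 and 73 CPM (2.58 ± 0.17, edgeR adjusted p = 3.50e-06). The other genes of the 20 with the largest folds that no list held were Tnfrsf8 (CD30, 2.84 ± 0.27), Ankrd55 (2.73 ± 0.19), Myo1d (2.63 ± 0.23), Laptm4b (2.60 ± 0.34), Msrb3 (2.21 ± 0.26), the leukotriene B4 receptor Ltb4r1 (2.14 ± 0.27), the semaphorin Sema4b (2.10 ± 0.23), Sh3rf1 (2.04 ± 0.22) and Neb (218 to 336 CPM against 52.7 to 90.5 CPM). A call and 1 direction in all samples were conditions of this choice, and edgeR adjusted p-values over the 20 ran from 2.63e-06 (Nckap5) to 0.00528 (Itgae).

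The genes that followed Foxp3-positive cells most closely, measured by the smallest of the 4 within-sample log2 ratios of CPM + 10, were Nckap5, Frmd5, Klrg1, Myo3b and Il10, with smallest ratios of 3.02, 2.64, 2.20, 2.10 and 2.04. On the low side, folds were ranked among called genes with at least 50 CPM in the higher population and 1 direction in every sample. Among these the largest folds after Cd40lg and Tcf7 belonged to Tnfsf8 (CD30 ligand, -2.91 ± 0.21), Igfbp4 (-2.89 ± 0.61), Mctp2 (-2.86 ± 0.17), Ifng, Tbx21, Arap2 (-2.35 ± 0.14), the TGF-beta co-receptor Tgfbr3 (-2.32 ± 0.52) and the thymocyte signalling protein Themis (-2.31 ± 0.14). Tnfrsf8 and its ligand Tnfsf8 thus differed in opposite directions, the receptor at 64.7, 84, 115 and 76.3 CPM against 1.87, 7.85, 16.9 and 16.8 CPM and the ligand at 96.1, 74.25, 60.6 and 142 CPM against 364, 559, 777 and 910 CPM, and neither pair of ranges overlapped. Of these 10 genes Igfbp4 and Ifng were the ones whose ranges overlapped. Igfbp4 stood at 0, 3.91, 4.04 and 8.41 CPM against 177, 72.9, 7.83 and 18.2 CPM, so that its difference lay mainly in samples 1 and 2, and without sample 1 it was not called (-1.90, edgeR adjusted p = 0.0504), while without sample 4 it was -3.78. The log2 difference of Tgfbr3 was -1.44 without sample 3 and -3.60 without sample 4.

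In the TGF-beta axis 3 of 12 genes were higher and 4 lower. Tgfbr2, the ligand-binding receptor, stood at 171, 148.5, 74.2 and 107 CPM against 639, 588, 286 and 366 CPM. Tgfbr2 was 3.9-fold lower (-1.96 ± 0.12, edgeR adjusted p = 2.64e-06), without overlap. Tgfbr1 was higher by 0.62 ± 0.17 (edgeR adjusted p = 0.0295), and Furin and Ski, both lower, differed by -0.64 ± 0.14 and -0.46 ± 0.12. In the interleukin-2 and STAT5 axis 5 of 15 were higher and 4 lower. Besides Il2ra, the chain Il2rb (0.48 ± 0.10) and the STAT5 targets Cish (0.95 ± 0.14), Socs2 (1.43 ± 0.17) and Pim1 (0.34 ± 0.10) were higher, while Stat5b (-0.61 ± 0.10), Jak1 (-0.39 ± 0.11), Bcl2 and the death factor Bcl2l11 (-0.94 ± 0.13) were lower. Among NF-kB and TNF receptor genes 4 of 17 were higher, all of them receptors (Tnfrsf4, Tnfrsf9, Tnfrsf18 and Cd27), and 3 were lower (Cd28, Tnfaip3 and Bcl2a1d). Of the genes of these lists, Tgfbr1, Ski, Jak1 and Pim1 lost their calls when any of several samples was left out, Il2rb when sample 3 was (edgeR adjusted p = 0.0523). Against effector-like cells the log2 difference of Il2rb was 0.06 (edgeR adjusted p = 0.823), and Tgfbr1, Cish and Jak1 were not called either (0.111, 0.0925 and 0.429). Furin, Ski, Stat5b and Jak1 were not called at 1000 UMIs, with log2 differences of -0.58, -0.61, -0.44 and -0.34. They were not called in cells of 2000 to 8000 UMIs either, at -0.38, -0.20, -0.27 and -0.24 (edgeR adjusted p = 0.289, 0.549, 0.271 and 0.373).

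Interferon-induced genes were higher in Foxp3-positive cells, 11 of 13 tested with none lower and a median log2 difference of 0.86. Gbp7, a guanylate-binding protein, stood at 127, 123, 126 and 106 CPM against 46.9, 30.3, 40.35 and 30.9 CPM (1.64 ± 0.15, edgeR adjusted p = 3.74e-05). Iigp1 and Igtp, immunity-related GTPases, differed by 1.47 ± 0.21 and 1.27 ± 0.18, and Ly6a (Sca-1) by 1.12 ± 0.14. The ranges of 6 of the 13 genes did not overlap. Irf7 and Ifit1 were not called. The count stayed at 11 of 11 in cells of 2000 to 8000 UMIs and 11 of 12 against effector-like cells, and was 5 of 12 without the sample block, 7 of 12 without sample 3 and 3 of 9 in cells thinned to 1000 UMIs. The median log2 difference was 0.84, 0.95 and 1.08 in these last 3, as large as with all data or nearly so.

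Cell cycle genes were also called higher, 12 of 16 with none lower, with a median log2 difference of 0.81, but this count varied with the fit and with the cells taken. Mki67, a proliferation marker, stood at 99.98, 137, 227 and 192 CPM against 59, 43.8, 152 and 104 CPM (0.84 ± 0.16, edgeR adjusted p = 0.00533). Rrm2, a subunit of ribonucleotide reductase, differed by 1.44 ± 0.17 (edgeR adjusted p = 3.06e-04). Members with an Mki67 UMI had a median of 16225 UMIs against 7428 in the other members, and members were deeper than the comparison cells. In cells of 2000 to 8000 UMIs none of the 6 genes that could be tested was called, and Mki67 had a log2 difference of -0.10 (edgeR adjusted p = 0.949), the list's median being 0.23. In cells thinned to 1000 UMIs, which kept the deep cells, Mki67 had a log2 difference of 1.25 (edgeR adjusted p = 0.0806), and 1 of 7 genes was called with a median of 0.88. DESeq2 called 4 of 15, leaving out sample 3 or sample 4 gave 5 of 16 each time, the fit without the sample block called none of 16, and 3 of 16 were called when cells rich in MHC class II UMIs were removed. The medians were 0.77 with DESeq2, 0.82 without sample 3, 0.79 without sample 4, 0.83 without the block and 0.68 without the MHC class II-rich cells, so calls were lost there with differences of similar size. An Mki67 or Top2a UMI was found in 34.55%, 32.8%, 47.97% and 45.8% of members against 23.1%, 22.4%, 41.25% and 35.1% of comparison cells, and at 1000 UMIs in 9.09%, 12.1%, 17.6% and 16.7% against 2.99%, 4.97%, 16.2% and 10.1%.

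**Figure D4:**
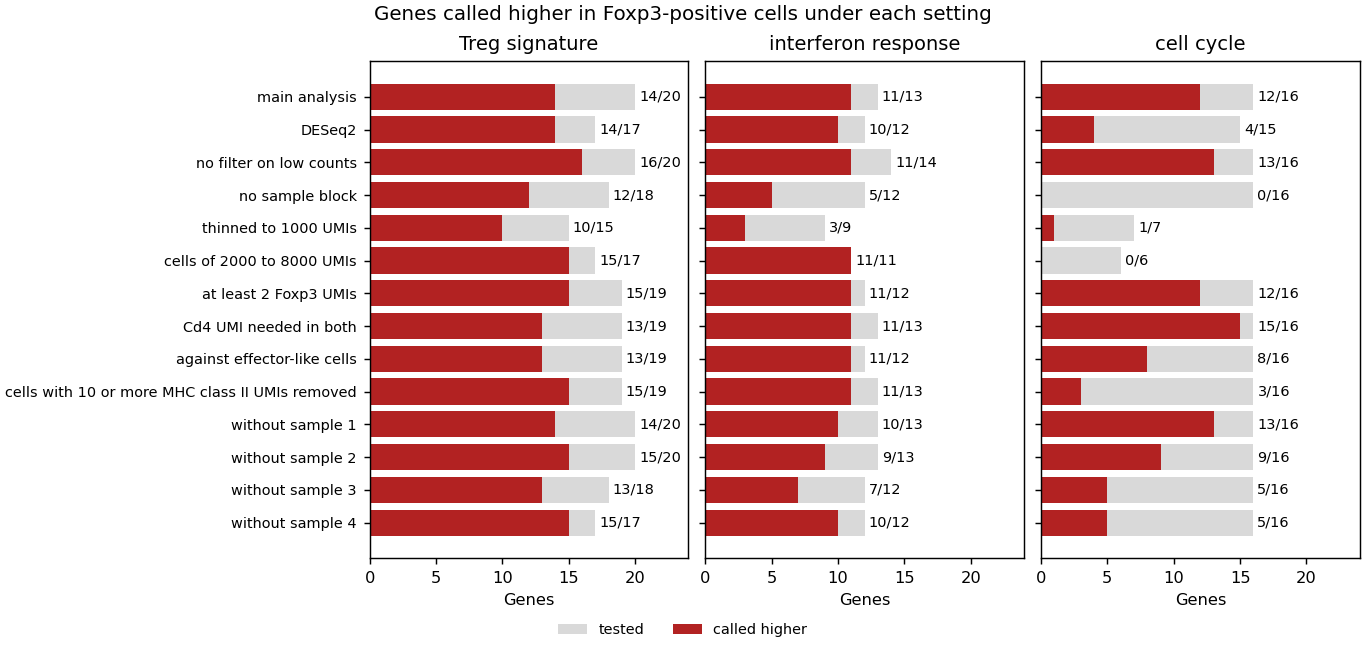
Genes of 3 lists tested (grey) and called higher in Foxp3-positive cells (red) under the main analysis and the alternatives named at the left (horizontal axis, number of genes). The signature list keeps 10 to 16 calls, the interferon list 3 to 11, and the cell cycle list runs from 0 to 15.

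In the immediate early and stress list 6 of 15 genes were lower and none higher. The lower ones were Fos, Fosb, Nr4a2, Nr4a3, Dusp1 and Dusp2, and the heat shock genes Hspa8, Hsp90aa1, Dnajb1 and Hspe1 were not called. Fosb stood at 196, 429.9, 136 and 202 CPM against 403, 609, 298 and 414 CPM (-0.99 ± 0.13, edgeR adjusted p = 4.88e-04), and Nr4a2 differed by -1.22 ± 0.17. No gene of this list was called without the sample block. Dusp1 was not called without sample 2, 3 or 4 (edgeR adjusted p = 0.0544, 0.0598 and 0.113), Fos not without sample 3 (0.0535), and in cells of 2000 to 8000 UMIs 3 of 15 genes were lower. In the metabolism and polyamine list 3 of 15 were higher, the glycolytic enzymes Ldha (0.56 ± 0.12) and Pkm (0.83 ± 0.11) and Odc1, the first enzyme of polyamine synthesis. Odc1 stood at 960.5, 996.5, 292 and 239 CPM against 602, 657.5, 183 and 186 CPM (0.51 ± 0.11, edgeR adjusted p = 0.00965), and samples 1 and 2 lay above samples 3 and 4 in both populations. Ldha was not called at 1000 UMIs (0.38, edgeR adjusted p = 0.263), in cells of 2000 to 8000 UMIs (0.39, 0.247) or without the sample block (0.0955). Odc1 was not called without sample 3 (edgeR adjusted p = 0.0585) nor against effector-like cells (0.898). Amd1, a further polyamine enzyme, was lower (log2 difference -0.83 ± 0.21), but not called without sample 1, 2 or 4. In the AhR pathway list 2 of 7 tested genes were higher, Entpd1 and Ahr, the latter with a call that most alternatives did not keep. Cyp1a1 and Cyp1b1, classical AhR targets, had no UMI in any member, Nqo1 and Gpr15 fell under the filter, and Tiparp was not called (0.27 ± 0.20, edgeR adjusted p = 0.429).

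Markers of other cells were read in the same sums. Of 9 myeloid genes tested none was called, while against effector-like cells 2 of 6 were higher, and the summed level of the 12-gene list was 533, 860, 676 and 450 CPM in members against 638, 572, 503 and 483 CPM. The most abundant of them, S100a8, was at 118 CPM over all members, and no gene of the list was at 0. Of 7 B and plasma cell genes tested only Ighm was called, at 209.8, 137, 87.9 and 98.95 CPM against 29.05, 88.6, 24.7 and 29.5 CPM (1.65 ± 0.26, edgeR adjusted p = 0.00153), and the list's sum was 433, 1557, 273 and 196 CPM in members against 244, 1558, 208 and 129 CPM. Igkc was the most abundant gene of the list in members. In sample 2 it stood at 707 CPM in members, 746 CPM in Foxp3-negative cells and 751 CPM in CD8 T cells. Cd8a and Cd8b1 were at 0 by the rule, and Gzmk was lower (-5.21 ± 0.47; -5.87 without sample 2 and -4.56 without sample 3). Of 8 tested genes of the NK and innate lymphoid list Areg was higher and Il22 and Gzma were lower, the call of Gzma being lost without sample 3, and the list's sum was 204, 862, 239.8 and 398 CPM against 122, 646, 332 and 424 CPM. Ncr1, a defining NK receptor, held 0 to 9.80 CPM and was under the filter. Of the stromal and epithelial list Pecam1 was lower (-1.13 ± 0.12) and Kdr had no UMI in members.

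The 4 MHC class II genes, which mouse T cells do not make in quantity, were not called against all Foxp3-negative CD4 T cells. The outcome turned with the cells compared, since 4 of 4 were higher against effector-like cells (median log2 difference 2.007) and 4 of 4 lower where a Cd4 UMI was needed in both populations (median -1.025). Cd74 stood at 149, 840.2, 362 and 411 CPM against 405, 341, 550.5 and 321 CPM, sample 1 being lowest and sample 2 highest among members. Cells with 10 or more UMIs of the 4 genes together numbered 2, 11, 11 and 7 among members and held 24 of 181, 927 of 1097, 1498 of 1763 and 1380 of 1536 of these UMIs. Among Foxp3-negative cells 10, 4, 12 and 8 such cells held 742 of 1028, 309 of 794, 2039 of 2237 and 1191 of 1295. A small number of cells thus carried most of the signal in the sums, the exceptions being sample 1 of the members and sample 2 of the comparison cells. Without these cells 589 genes were higher and 569 lower, and the regulatory T cell signature had 15 of 19 genes higher. Among the gene lists the count of genes called moved most without them for the cell cycle, from 12 to 3 of 16.

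Foxp3-positive cells varied among themselves. A Gata3 or Il1rl1 UMI was found in 67.3%, 39.7%, 70.3% and 68.3% of members, sample 2 being low, and the thinned shares were 23.6%, 10.3%, 25.7% and 20.8%. Of 114 members with an Il1rl1 UMI, 81.6% had a Gata3 UMI and 49.1% a Klrg1 UMI, against 49.4% and 15.4% of the 267 without, at median depths of 9150 and 8694 UMIs. Of 192 members with an Il10 UMI, 75.0% had a Gzmb UMI against 47.1% of the 189 without, but here the depths were 10026 and 7989 UMIs. These are pooled over samples and given as descriptions.

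To see what went with Gata3 and Il1rl1, members with a UMI of either (37, 23, 104 and 82 cells) were set beside members with neither (18, 35, 44 and 38 cells). This split was chosen after the values were seen, and no test was run. Median depths of the 2 groups were 8361 against 7345, 7171 against 6440, 9664 against 8272 and 11027 against 7187 UMIs in samples 1 to 4, deeper in the Gata3 or Il1rl1 group each time. Ikzf2 was higher in the Gata3 or Il1rl1 group of every sample, at 3191, 3172, 1511 and 1490 CPM against 1059, 1210, 1074 and 539 CPM. Klrg1 was higher in 4 of 4 samples, at 131, 129, 99.1 and 107 CPM against 0, 41.9, 70.9 and 28.7 CPM. Tnfrsf9, Mki67, Itgae, Ky and Areg were likewise higher in 4 of 4. The difference was slight for Itgae in samples 1 and 3, Tnfrsf9 in sample 3 and Ky in samples 1 and 4. Ctla4 was lower in the Gata3 or Il1rl1 group in 4 of 4 samples, at 2295, 2243, 2051 and 1954 CPM against 3290, 2728, 2330 and 2661 CPM. Maf was lower in samples 1, 3 and 4 but not in sample 2, at 826.5, 1088, 835.1 and 1111 CPM against 1329, 994.2, 1420 and 1396 CPM. Il10 was lower in the same 3 samples, at 100.5, 439.8, 250.5 and 283.1 CPM against 697.5, 436.1, 717 and 415.7 CPM, with almost no difference in sample 2. Ccr9 was lower in samples 1 and 3 and nearly equal in sample 4, while Gzmb did not keep 1 direction.

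**Figure D5:**
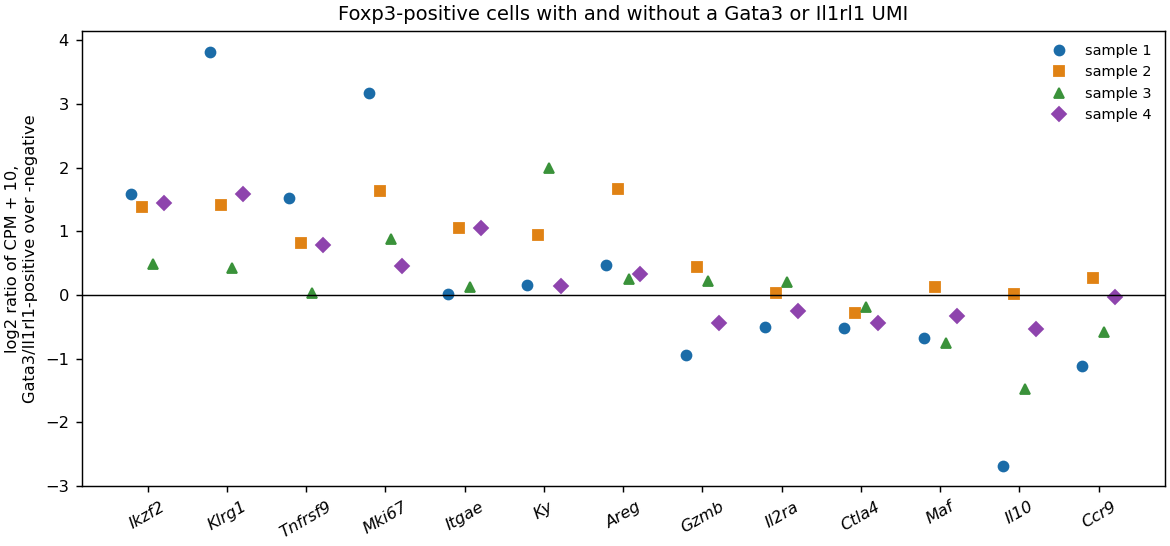
Log2 ratio of CPM + 10 between Foxp3-positive cells with a Gata3 or Il1rl1 UMI and those without, for 13 genes in each sample (symbols). Ikzf2 and Klrg1 lie above 0 in 4 of 4 samples, Ctla4 below 0 in 4 of 4, and Maf, Il10 and Ccr9 below 0 in 3 of 4.

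Across samples the members' sums differed most in genes carried by very few cells. Ranked by the spread of log2(CPM + 1) over the 4 samples, the first 10 genes included Mcpt2, Csmd1, Mcpt1, Fscn1, Pcdh9, Scn7a, Thsd4, Tmem163 and Pde7b, and no test was made between samples. Mcpt2, a mast cell protease, stood at 0, 1110, 1.01 and 0 CPM, and 1 cell of sample 2 held 551 of its 568 UMIs. Csmd1 stood at 0, 221, 1.01 and 0 CPM, with 112 of 113 UMIs in 1 cell of sample 2. Scn7a and Pcdh9 came from a single member each in sample 2 (58 and 65 UMIs). Fscn1, an actin-bundling protein of mature dendritic cells, was 0, 1.95, 127 and 76.3 CPM, and 13 members of sample 3 and 6 of sample 4 held all 252 and 118 UMIs of their samples. Tmem163 and Pde7b came from more than 5 members in each of samples 2 to 4. In sample 2, however, 1 member held 23 of 29 Tmem163 UMIs and 1 member 14 of 37 Pde7b UMIs. Mcpt1, a second mast cell protease, followed Mcpt2 in sample 2, with 113 of 148 UMIs in 1 cell, and in the comparison cells of sample 1, where 1 cell held 898 of its 899 UMIs. A sum over 55 or 58 cells can therefore turn on 1 of them.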

How the data were processed

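Colonic lamina propria CD45+ cells of 4 samples were profiled by 10x Genomics single-cell RNA sequencing. The deposited files hold UMI counts per gene and cell (32285 genes), made by the authors by alignment to mm10. The submitters' processing notes name Cell Ranger 5.0.0, STAR and Seurat, whereas the file headers give Cell Ranger 7.0.1. The values are raw counts without normalization.

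Cells were filtered and gated as given at the start of the results, and UMIs were summed per sample and population. Sums were tested with edgeR 4.0.16 (quasi-likelihood test, TMM, filterByExpr, Benjamini-Hochberg adjustment, threshold 0.05, R 4.3.3) with sample as block, after the gate genes had been left out. The pairing comes from the design, since both populations of a sample are from 1 library of 3 mixed mice. The procedure was tested on simulated data drawn with the same dispersion for every gene. Such data cannot show how the test behaves where 1 cell holds most UMIs of a gene. Cells and shares were handled with Python 3.11.15 and scanpy 1.11.5. No cells were removed as doublets in the main analysis. The alternative took out the highest Scrublet scores, at 0.8% of cells per 1000 cells. Thinning drew 1000 UMIs per cell. Other alternatives were DESeq2 1.42.0, no filter on low counts, no block, stricter cell filters, a depth window, at least 2 Foxp3 UMIs, Cd4 in both populations, effector-like comparison cells and leaving out each sample. Removing cells rich in MHC class II UMIs was added after seeing the data.

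The labels number the 4 samples as replicates of 1 DSS group and give no genotype, so no test between samples was made. As a check for duplicate libraries, member sums were compared between samples (chi-square per gene from 3.53 to 6.94, against counting error alone), and no pair was alike enough to be counted as 1. Between 23 and 49 cell barcodes were shared by a pair of samples. The members and the gene lists were chosen with earlier results of these data known. Genes named outside the lists were the 20 with the largest fold higher and the 10 lower among called genes with at least 50 CPM in the higher population and 1 direction in every sample, the 5 with the largest smallest ratio, and the 10 with the largest range across samples. Mitochondrial, ribosomal, receptor-segment and unnamed genes were left out of that choice, and some genes that the rules chose are not reported here. Counting intervals are exact 95% binomial intervals, and cells of a sample share its mice.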

Additional observations from a re-analysis of the deposited data

Results flagged for a closer look

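Among the values given for each sample, 6 had 1 sample far from the other 3, by a gap, relative to the whole range of the 4 samples, above Dixon's 95% critical value. Chance gives such a gap in about 1 of 20 groups, and 45 values were examined, but this rate does not hold for Mcpt2 and Csmd1, which were chosen for their range across samples. Nckap5 was 816.7 CPM in the Foxp3-positive cells of sample 2 against 162.7 to 236.1 CPM in the others, Csmd1 220.8 CPM against 0 to 1.01 CPM, and Mcpt2 1110 CPM against 0 to 1.01 CPM. Igkc was 707.3 CPM in sample 2 against 50.45 to 90.17 CPM. Ifng was 213.7 CPM in sample 1 against 7.574 to 15.63 CPM, and Cd40lg 16.82 CPM in sample 4 against 9.594 to 9.802 CPM. Of these, Mcpt2, Csmd1 and Ifng came almost wholly from 1 cell each, with 551 of 568, 112 of 113 and 107 of 109 UMIs. Nckap5 came from 35 of 58 cells, and Igkc was at about the same level in the other T cells of sample 2. The Cd40lg values rested on few UMIs, with 5, 5, 19 and 26 in the members of samples 1 to 4. The causes were not tested.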

How the results depend on the processing

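Against 690 genes higher and 615 lower, DESeq2 gave 390 and 406, cells of 2000 to 8000 UMIs gave 401 and 345 of 5996 tested, and cells thinned to 1000 UMIs gave 161 and 177 of 3611 tested, fewer genes and counts being available in the last pair. Without the replicate block, that is, without pairing the populations of a sample, 256 were higher and 260 lower, all of them also called with it, and 73 of 105 called genes named here kept their call. That number was 64 of 91 at 1000 UMIs, 84 of 102 in cells of 2000 to 8000 UMIs and 86 of 103 against effector-like cells. Calls lost under both limits on depth were those of Ahr, Amd1, Cd44, Dusp1, Entpd1, Furin, Il18rap, Jak1, Ldha, Mki67, Nfil3, Ski, Stat5b and Top2a. Among them the log2 difference was smaller for Ahr (0.167 at 1000 UMIs and 0.207 in the depth window) and stayed large for Amd1 (-1.025 and -0.977), Nfil3 (0.864 and 0.791) and Entpd1 (1.135 and 1.007). Leaving out 1 sample gave 385 to 484 higher and 332 to 482 lower, the lowest counts being without sample 3. All other alternatives stayed within 1.5 times. The median share of Foxp3-positive cells was 35.4% of CD4 T cells, 13% of all T cells, and 29.1% to 41.7% with 1 sample left out. Members needed no Cd4 UMI in these shares. Directions turned for Mki67 (-0.102) and Il18rap (0.012) in cells of 2000 to 8000 UMIs and, against effector-like cells, for S1pr1 (0.112), Cd74 (2.172) and Mcpt1 (2.945). Mcpt1 also moved from -0.869 (without sample 3) to 3.544 (without sample 1). Mcpt2 turned with the highest Scrublet scores removed (-6.052), Cd4 needed in both (-4.323), 2 Foxp3 UMIs (-6.006) and MHC class II-rich cells removed (-4.614), and single cells held nearly all its UMIs. A planned comparison between kinds of members was not run, nor were its alternatives, for want of cells. Depth limits low genes most: in samples 1 and 2 the members' sums held 510124 and 511792 UMIs, so 1 UMI is worth about 2 CPM there.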

Other observations

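Of the AhR pathway list, 2 genes were chosen for a further look after their values were seen. Tiparp, a target gene of AhR, stood at 363, 356, 66.2 and 82.8 CPM in the Foxp3-positive cells of samples 1 to 4 and at 182, 208, 91.5 and 87.0 CPM in Foxp3-negative CD4 T cells. Ahrr, the AhR repressor, stood at 13.7, 19.5, 0 and 0 CPM in Foxp3-positive cells and at 5.62, 22.4, 0 and 0.702 CPM in Foxp3-negative cells. Samples 1 and 2 were higher than samples 3 and 4 for both genes in both populations. Not every gene of the list shared this order. Entpd1 was lower in samples 1 and 2 than in samples 3 and 4, at 41.2, 105.5, 110.6 and 160.4 CPM in Foxp3-positive cells and 20.6, 33.7, 40.35 and 44.2 CPM in Foxp3-negative cells, and Ahr stood at 88.2, 205, 158 and 214 CPM in Foxp3-positive cells. No test was made, since the labels assign the samples to no genotype.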
